A study of Mus musculus with 8 samples.

Results

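The genes described here are 9 secreted defence proteins: the cathelicidin Camp, the neutrophilic granule protein Ngp, lactoferrin (Ltf), lipocalin 2 (Lcn2), the protease inhibitor Slpi, the calprotectin subunits S100a8 and S100a9, serum amyloid A3 (Saa3) and haptoglobin (Hp). They were chosen by name from the 53700 gene rows of a raw count table, all 9 were found there, and all 9 passed the filter on low counts that left 18656 genes. Ribosome-bound RNA was recovered from mouse skin in 8 libraries: uninjured skin (n = 3), and skin 3 days (n = 2) and 7 days (n = 3) after wounding, where PW3d and PW7d in the titles were read as days after wounding. All mice, uninjured controls included, were AdipoqCreER;R26-NuTRAP and had received tamoxifen, so that a recombinase driven from the adiponectin gene switched on GFP-tagged ribosomes, which were pulled down with an antibody against GFP. Per the labels, wounded mice were 7 to 9 weeks old and in telogen and carried 4 full-thickness punch wounds of 5 mm. Libraries were made from 20 ng of RNA. Whether a library came from 1 animal or a pool is not stated in the labels. The p-values therefore measure the spread between these samples only, and that spread may be technical. Ngp passed the filter through day 7 replicates 1 and 2, and Ltf only through wounded libraries.

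Antimicrobial and acute phase proteins are an early arm of wound defence. Neutrophils carry cathelicidin, lactoferrin, lipocalin 2 and calprotectin into the wound, epithelia secrete several of the same proteins, and haptoglobin and the serum amyloids belong to the acute phase response. Adipocytes are a source too: mouse fat makes haptoglobin, lipocalin 2 and Saa3, and mouse dermal adipocytes are known to make cathelicidin during bacterial skin infection.

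The libraries held 5308959 to 17751689 counts. All 10 adipocyte markers examined had counts in every library, with a summed level of 82645 to 103098 CPM (counts scaled to equal library size, with edgeR's TMM factors) in uninjured libraries, 103483 and 76286 CPM at day 3 and 49873 to 106390 CPM at day 7. Cfd and Fabp4 were the largest of the 10, averaging 55160 and 19615 CPM in uninjured skin. At day 7 against uninjured skin, 1 of the 10 fell and 0 rose in edgeR at an adjusted p under 0.05. By the same rule 1.77% of tested genes fell and 5.9% rose. At an unadjusted p under 0.05, 4 were lower and 0 higher, and DESeq2 called 2 lower and 0 higher. The log2 fold change was positive for 1 of the 10, with a median of -0.67. Markers of other cell types had counts as well. Summed luminal (glandular) epithelium markers lay at 77.3 to 113 CPM in uninjured libraries, at 1912 and 95.6 CPM in day 3 replicates 1 and 2, and at 853 to 1742 CPM at day 7. Day 3 replicate 1 stood apart on the second principal component (-97.7, against -11.3 to 30.3 in the other libraries), and day 7 replicate 3 lay near the day 3 libraries on the first (8.43, against 114 and 82.5 in day 7 replicates 1 and 2 and 1.90 and 4.96 at day 3). None of the 8 libraries is of RNA before the pull-down, so the enrichment of any gene over that RNA is unknown. In such libraries, a change in cell number, in RNA per cell or in untagged RNA carried through the pull-down cannot be told apart. The numeric prefix of the column names is shared within each group and differs between groups, so a processing difference tied to it and the group cannot be told apart.

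Promoter sequences are shown for the 4 members that passed the test at day 7, and for S100a8, which did not while its partner S100a9 did. RefSeq promoter windows (GRCm38.p6, from 250 bases before to 50 bases after the gene start) were found for 8 of the 9 members. The C/EBP factors, which bind promoters of many granule and acute phase genes, were searched for as TTGCNNAA on both strands. These letters occurred in the windows of 6 members (Lcn2, Ltf, Slpi, S100a9, Saa3 and Ngp) and in 10.8% of all 32851 windows. The S100a8 and Camp windows did not hold them. The stretches below run 5′ to 3′ on the gene's strand, begin 250 bases before the RefSeq start and stop before the first base that GENCODE M21 annotates as an exon, and capitals mark the C/EBP letters.
Saa3: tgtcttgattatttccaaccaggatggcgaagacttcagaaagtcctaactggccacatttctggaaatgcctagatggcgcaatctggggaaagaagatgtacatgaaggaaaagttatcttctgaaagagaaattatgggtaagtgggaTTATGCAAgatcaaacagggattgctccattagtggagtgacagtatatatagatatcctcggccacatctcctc
S100a9: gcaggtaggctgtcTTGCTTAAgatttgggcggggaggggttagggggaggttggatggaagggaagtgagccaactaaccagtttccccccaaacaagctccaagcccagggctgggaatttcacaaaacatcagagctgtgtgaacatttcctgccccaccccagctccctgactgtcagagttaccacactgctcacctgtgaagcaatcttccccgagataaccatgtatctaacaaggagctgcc
Slpi: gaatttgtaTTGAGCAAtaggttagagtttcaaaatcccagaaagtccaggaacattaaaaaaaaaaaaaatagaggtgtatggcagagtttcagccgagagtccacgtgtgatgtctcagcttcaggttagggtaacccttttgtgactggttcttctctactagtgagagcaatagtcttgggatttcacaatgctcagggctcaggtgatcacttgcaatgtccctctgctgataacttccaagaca
Ltf: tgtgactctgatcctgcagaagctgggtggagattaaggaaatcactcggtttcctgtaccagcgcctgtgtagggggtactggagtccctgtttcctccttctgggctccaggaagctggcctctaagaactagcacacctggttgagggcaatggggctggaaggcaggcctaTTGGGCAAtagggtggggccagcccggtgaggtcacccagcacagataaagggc
S100a8: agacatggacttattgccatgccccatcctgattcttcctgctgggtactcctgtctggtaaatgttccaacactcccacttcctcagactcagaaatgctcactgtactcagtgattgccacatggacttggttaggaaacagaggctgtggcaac
They lie at chr7:46715701-46715926 (minus strand, Saa3), chr3:90695722-90695971 (minus, S100a9), chr2:164356508-164356757 (minus, Slpi), chr9:111019042-111019270 (plus, Ltf) and chr3:90668821-90668977 (plus, S100a8). Counting the start as 1, with no position 0, the C/EBP letters begin at -99 in Saa3, at -75 in Ltf, at -236 in S100a9 and at -241 in Slpi. The NF-kB motif was found only in the Camp window, after the start (20.7% of all windows). TATAAA was in the S100a8 window at -30 to -25 and in the S100a9 window at 1 to 6, from the start onward (13.6% of all). The STAT motif TTCNNNGAA was in no member's window (8.3% of all), and no 2 matches overlapped. A match describes these letters only.

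At day 7, 4 of the 9 members rose relative to uninjured skin (S100a9, Slpi, Saa3 and Ltf), and none fell in edgeR's quasi-likelihood test at an adjusted p under 0.05. Of all tested genes, 5.9% rose and 1.77% fell by the same rule. At an unadjusted p under 0.05, 5 members were higher and 0 lower, and DESeq2 called 5 higher and 1 lower. Among all 18656 tested genes, 4987 had an edgeR unadjusted p under 0.05 in either direction, and DESeq2 called 1885 higher and 717 lower. The median log2 fold change of the 9 members was 2.11, against 0.04 over all tested genes. That median was the value of Ngp (SE 1.14), which had few counts and passed the filter through day 7 libraries. All 3 day 7 libraries lay above all 3 uninjured libraries for 5 members, the 4 called and Camp (16.7% of tested genes), and all 3 lay below for 1, Hp (13.5% of tested genes). Leaving out each of the 6 day 7 and uninjured libraries in turn (day 3 libraries were not left out here), Slpi and S100a9 alone kept their calls each time: the number of members called was 2 without day 7 replicate 1 or 2, and also without uninjured replicate 1 or 3, and without uninjured replicate 2 it was 3.

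At day 3, 0 of the 9 members passed the edgeR test in either direction, in a comparison in which 0.0107% of tested genes rose and 0% fell (2 genes and 0 genes). At an unadjusted p under 0.05, 5 members were higher and 0 lower, and DESeq2 also called 5 higher and 0 lower: Lcn2, Ltf, Slpi, S100a9 and Saa3. Among all 18656 tested genes, 2418 had an edgeR unadjusted p under 0.05 in either direction, and DESeq2 called 318 higher and 104 lower. Both day 3 libraries lay above all 3 uninjured libraries for 6 members (16.9% of tested genes) and below for 0 (17.2%). The median log2 fold change of the members was 2.45, against 0.02 over all tested genes. Between day 7 and day 3, 0 members were called in edgeR in either direction (0.0643% of tested genes higher and 0.0214% lower). There, 0 members were higher and 1 lower at an unadjusted p under 0.05, and DESeq2 called 0 higher and 1 lower, Lcn2 in each case. In that comparison 2054 of all 18656 tested genes had an edgeR unadjusted p under 0.05 in either direction, a share close to that of the members. Members whose libraries did not overlap numbered 1 higher, Camp (14.2% of tested genes), and 1 lower, Lcn2 (11.4%).

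**Figure D1:**
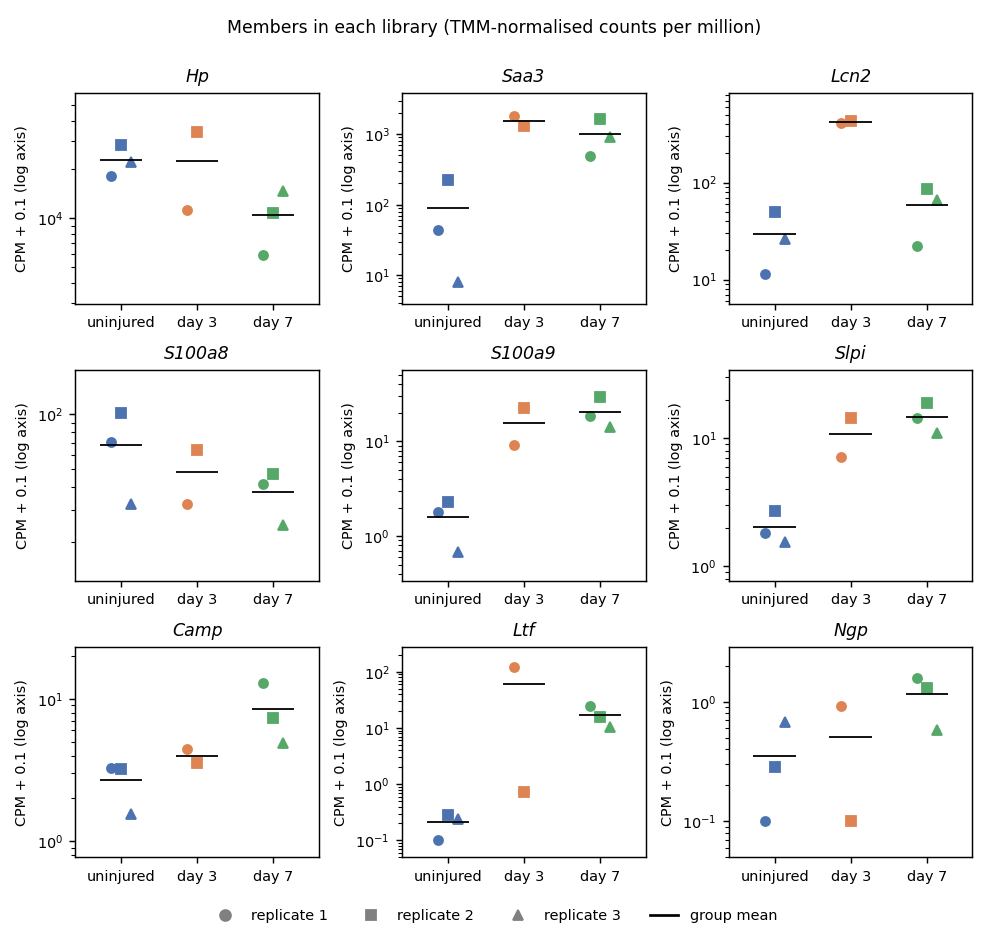
Level of each of the 9 members in each library, as TMM-normalised CPM plus 0.1 on a log axis, for uninjured, day 3 and day 7 skin; points are libraries (shape gives the replicate) and bars are group means. Saa3, S100a9 and Slpi are higher in every wounded library than in any uninjured one, Lcn2 is highest at day 3, and Ltf lies far apart in the 2 day 3 libraries (121.7 and 0.641 CPM).

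**Figure D2:**
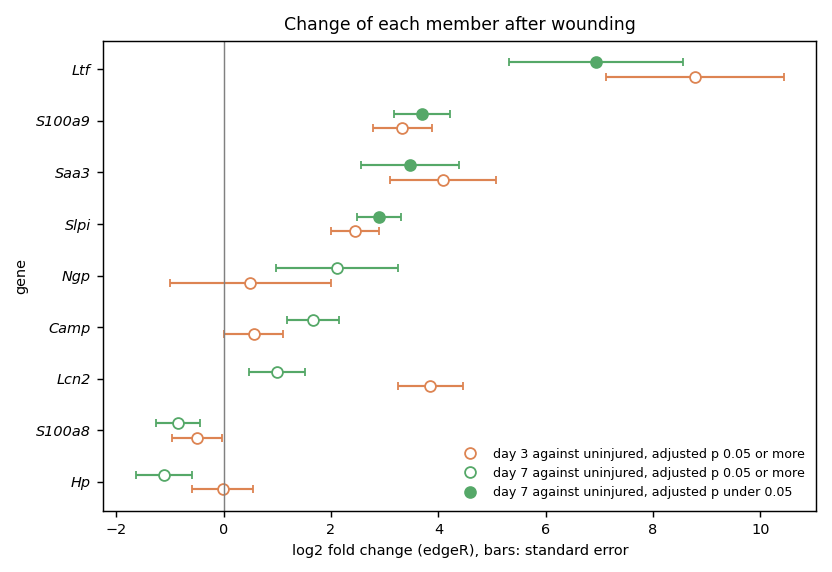
Log2 fold change with its standard error for each member at day 3 and at day 7 against uninjured skin, from edgeR; filled points passed an adjusted p of 0.05. Filled points are Ltf, S100a9, Saa3 and Slpi at day 7, and no day 3 point is filled.

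Saa3, an acute phase apolipoprotein made outside the liver by adipocytes and macrophages, had the largest absolute gain in CPM among the members. It was at 44.0, 221 and 7.80 CPM in uninjured replicates 1 to 3, at 1814 and 1288 CPM at day 3, and at 489, 1619 and 925 CPM at day 7. Every wounded library lay above every uninjured one, the day 3 and day 7 ranges overlapped, and the uninjured libraries themselves lay far apart. At day 7 it averaged 1011 ± 570 CPM, against 90.9 ± 114 CPM in uninjured skin (SD, n = 3 each), 11.1-fold higher with a log2 fold change of 3.47 ± 0.92 (SE) and an edgeR adjusted p of 0.0440. Leaving out day 7 replicate 1 or 2, or uninjured replicate 1 or 3, ended this call (adjusted p over all alternatives 2.3e-21 to 0.153). At day 3 the log2 fold change was 4.09 ± 0.98, with an edgeR adjusted p of 0.181 (1.07e-25 to 0.500 over the alternatives).

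Lcn2, which binds bacterial siderophores and so withholds iron, was the member that stood out at day 3. It was at 11.2, 49.8 and 26.3 CPM in uninjured replicates 1 to 3, at 411 and 433 CPM at day 3, and at 22.1, 85.8 and 66.4 CPM at day 7. Both day 3 libraries lay above every other library, and the day 7 and uninjured ranges overlapped. At day 3 it averaged 422 ± 15.4 CPM (SD, n = 2), against 29.1 ± 19.4 CPM in uninjured skin (n = 3), a log2 fold change of 3.85 ± 0.60 with an edgeR adjusted p of 0.114 (1.83e-28 to 0.343 over the alternatives). The log2 fold change was -2.86 ± 0.58 at day 7 against day 3 (edgeR adjusted p = 0.141, and 1.67e-16 to 0.297 over the alternatives) and 0.99 ± 0.53 at day 7 against uninjured skin (adjusted p = 0.250). In day 3 replicates 1 and 2 the luminal epithelium markers summed to 1912 and 95.6 CPM and the macrophage and monocyte markers to 321 and 1238 CPM, and their part in the Lcn2 values was not tested.

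Hp, the haemoglobin-binding acute phase protein, was the most abundant member in every group. It took 0.776% to 3.30% of all counts of a library, and by CPM per kilobase of exon it ranked 2 to 9 among all genes of a library. It was at 18190, 28235 and 22050 CPM in uninjured replicates 1 to 3, at 11171 and 33769 CPM at day 3, and at 5940, 10840 and 14763 CPM at day 7. All day 7 libraries lay below all uninjured libraries, and the 2 day 3 libraries spanned both groups. At day 7 it averaged 10514 ± 4421 CPM, against 22825 ± 5068 CPM in uninjured skin (SD, n = 3 each), a log2 fold change of -1.12 ± 0.52 (95% interval -2.26 to 0.03) with an edgeR adjusted p of 0.196 (0.0426 to 0.474 over the alternatives). Adipoq, the adiponectin gene, was likewise lowest in day 7 replicate 1, with 1803, 2789 and 5177 CPM in day 7 replicates 1 to 3 against 4908, 5404 and 5401 CPM in uninjured ones. The 10 adipocyte markers together summed to 49873, 59428 and 106390 CPM in day 7 replicates 1 to 3, against 82645, 103098 and 102764 CPM in uninjured ones. Replicate 3 was thus above every uninjured library in this sum but below every one in Hp. Of the 10, 1 had a positive log2 fold change at day 7, Fabp4 (24817 against 19615 CPM). The part of these markers in the Hp values was not tested. At day 3 the log2 fold change of Hp was -0.02 ± 0.58, a value whose sign changed with upper-quartile scaling, so no direction is given.

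S100a9 and S100a8, the subunits of the calcium- and zinc-binding heterodimer calprotectin, differed in pattern. S100a9 was at 1.71, 2.20 and 0.578 CPM in uninjured replicates 1 to 3, at 9.05 and 22.5 CPM at day 3, and at 18.3, 29.3 and 14.01 CPM at day 7. Every wounded library was above every uninjured one. At day 7 it rose 12.99-fold, to 20.6 ± 7.88 CPM against 1.497 ± 0.834 CPM in uninjured skin (SD, n = 3 each), a log2 fold change of 3.70 ± 0.52 with an edgeR adjusted p of 0.00456, and it passed in all 13 alternatives (highest adjusted p = 0.0257). At day 3 the log2 fold change was 3.33 ± 0.55 with an edgeR adjusted p of 0.115 (2.71e-11 to 0.432 over the alternatives).

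S100a8 was at 70.6, 101 and 32.2 CPM in uninjured replicates 1 to 3, at 32.3 and 63.8 CPM at day 3, and at 41.8, 46.9 and 24.7 CPM at day 7. The groups overlapped throughout. Its log2 fold change was -0.85 ± 0.41 at day 7 (95% interval -1.75 to 0.05, edgeR adjusted p = 0.209, 0.0204 to 0.512 over the alternatives) and -0.50 ± 0.46 at day 3 (adjusted p = 0.664).

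The balance of the subunits within a library was set side by side next. Per kilobase of exon, S100a8 exceeded S100a9 by 31.1, 34.6 and 41.9 times in uninjured replicates 1 to 3, by 2.68 and 2.14 times at day 3, and by 1.71, 1.205 and 1.32 times at day 7. No ratio of a wounded library came near those of uninjured libraries. On the log2 scale of the CPM ratio, day 7 averaged 0.89 ± 0.26 and uninjured skin 5.56 ± 0.22 (SD, n = 3 each), a difference of -4.67 with an exact two-sided permutation p of 0.1, the smallest that 3 against 3 libraries allow. Day 3 averaged 1.67 ± 0.23 (n = 2), and its difference from uninjured skin was -3.89 (exact permutation p = 0.1, the smallest that 2 against 3 libraries allow). The S100a9 counts behind the uninjured ratios were 14, 36 and 4, so these ratios carry counting error, whereas S100a8 had 579, 1656 and 223 counts there. In the deposited coordinates both genes lie on chromosome 3, S100a8 from 90576285 to 90577342 on the plus strand and S100a9 from 90599939 to 90603028 on the minus strand, 22597 bases apart with no symbol-bearing gene between them. The outer neighbours, S100a7a beside S100a8 and Gm42579 beside S100a9, averaged 0.504 and 0.0648 CPM over all libraries.

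**Figure D3:**
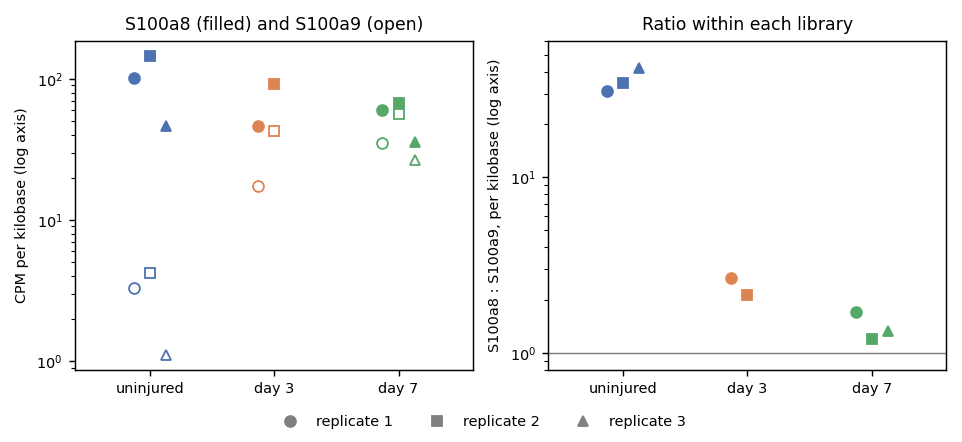
Left, CPM per kilobase of exon of S100a8 (filled) and S100a9 (open) in each library on a log axis; right, the S100a8 to S100a9 ratio within each library, on a log axis with a line at a ratio of 1. The uninjured ratios lie between 31.1 and 41.9, and those of all 5 wounded libraries between 1.205 and 2.68.

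The 10 neutrophil markers examined outside the members were low in every library. Their summed level was 6.21 to 13.2 CPM in uninjured libraries, 9.46 and 34.4 CPM at day 3, and 7.91 to 16.9 CPM at day 7. Il1r2 was the largest part of it, averaging 5.67 CPM in uninjured skin, 10.5 CPM at day 3 and 6.10 CPM at day 7. Of these 10 markers 5 were tested, and all 5 had a positive log2 fold change, with a median of 1.26 at day 7 and 1.66 at day 3 against uninjured skin. In edgeR 0 of the 5 were called at either time (2 were higher at an unadjusted p under 0.05 at each time, and 0 in DESeq2). Csf3r, the receptor for granulocyte colony-stimulating factor, was at 0.732, 1.90 and 0.289 CPM in uninjured replicates 1 to 3, at 2.06 and 5.35 CPM at day 3, and at 4.19, 4.01 and 1.56 CPM at day 7. Mcemp1, a myeloid membrane protein, was at 0.244, 0.0612 and 0 CPM in uninjured replicates, at 1.23 and 1.82 CPM at day 3, and at 1.47, 1.03 and 0.359 CPM at day 7. Ly6g, the defining neutrophil surface gene of mice, had at most 0.467 CPM in any library, and the chemokine receptor Cxcr2 at most 0.980 CPM. Of the 10 markers, 3 to 5 were at 0 in uninjured libraries, 6 and 1 at day 3, and 1 to 4 at day 7. The part of neutrophils in the S100a8, S100a9 and other member values was not tested. Macrophage and monocyte markers moved in the direction of S100a9, with summed levels of 139 to 308 CPM in uninjured libraries, 321 and 1238 CPM at day 3, and 555 to 1282 CPM at day 7. All 13 of them had counts in every library. At day 7, 7 of the 13 rose (5.9% of tested genes) and none fell (1.77%) in edgeR. At an unadjusted p under 0.05 or in DESeq2, 0 fell. The part of these markers in the S100a9 values was not tested.

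Slpi, an inhibitor of neutrophil serine proteases with antimicrobial activity, followed S100a9 closely. It was at 1.71, 2.57 and 1.44 CPM in uninjured replicates 1 to 3, at 6.99 and 14.2 CPM at day 3, and at 14.3, 18.7 and 10.9 CPM at day 7. Every wounded library was above every uninjured one. At day 7 it rose 7.44-fold, to 14.6 ± 3.89 CPM against 1.91 ± 0.590 CPM in uninjured skin (SD, n = 3 each), a log2 fold change of 2.90 ± 0.42 with an edgeR adjusted p of 0.00480. It passed in all 13 alternatives (highest adjusted p = 0.0309). At day 3 the log2 fold change was 2.45 ± 0.44 with an edgeR adjusted p of 0.119 (3.63e-05 to 0.432 over the alternatives). Elane, the neutrophil elastase that Slpi inhibits, did not pass, at 2.72, 3.36 and 10.7 CPM in day 7 replicates 1 to 3 and 11.8, 10.8 and 17.9 CPM in uninjured ones (log2 fold change -1.28, edgeR adjusted p = 0.126). The source of the Elane counts, by cell type or by neighbouring gene, was not tested.

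Ltf, the iron-binding milk and granule protein lactoferrin, was almost absent from uninjured libraries, with 0, 3 and 1 counts in replicates 1 to 3. At day 3 it had 592 and 6 counts (121.7 and 0.641 CPM), and at day 7 it had 219, 168 and 87 counts (24.8, 15.7 and 10.4 CPM). The day 3 libraries thus differed more from each other than day 7 libraries did from each other. Summed over libraries, the day 7 rate was 134 times the uninjured rate (95% exact interval 51.8 to 492, counting error only). The edgeR log2 fold change at day 7 was 6.94 ± 1.62 with an adjusted p of 0.0287, a call that ended when day 7 replicate 1, day 7 replicate 2 or any uninjured library was left out (at most adjusted p = 0.105). The fitted fold rests on 4 uninjured counts. At day 3 the edgeR log2 fold change was 8.78 ± 1.66 (adjusted p = 0.140), and it was 2.26 without day 3 replicate 1 and 9.76 without replicate 2.

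The luminal epithelium markers were high and low in the same libraries as Ltf. The simple keratin Krt8 was at 0.488, 0.674 and 0.433 CPM in uninjured replicates 1 to 3, at 329 and 0.641 CPM in day 3 replicates 1 and 2, and at 241, 298 and 97.3 CPM at day 7. Of 18 such markers 16 were tested. At day 7, 14 of the 16 rose (5.9% of tested genes) and 0 fell (1.77%) in edgeR. At an unadjusted p under 0.05 or in DESeq2, 0 fell. Between 2 and 5 of the 18 were at 0 in uninjured libraries. Their part in the Ltf values was not tested.

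Camp, whose product is processed to the antimicrobial cathelicidin peptide, stayed at low levels. It was at 3.17, 3.12 and 1.44 CPM in uninjured replicates 1 to 3, at 4.32 and 3.42 CPM at day 3, and at 12.9, 7.28 and 4.79 CPM at day 7. All wounded libraries were above all uninjured ones, by a narrow margin at day 3. At day 7 it averaged 8.33 ± 4.16 CPM, against 2.58 ± 0.984 CPM in uninjured skin (SD, n = 3 each), a log2 fold change of 1.67 ± 0.48 (95% interval 0.60 to 2.73) that missed the threshold (edgeR adjusted p = 0.0587). DESeq2, the fit without a filter, the fit with a replicate block and the fit without day 7 replicate 3 called it (adjusted p over the alternatives 0.0148 to 0.251). Keratinocyte and hair follicle markers were also highest in day 7 replicate 1 (a sum of 7442 CPM, against 2452 and 2128 CPM in replicates 2 and 3). They summed to 1573 and 6155 CPM in day 3 replicates 1 and 2 and to 1950 to 3835 CPM in uninjured libraries, and their part in the Camp values was not tested.

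Ngp, a cathelicidin-related protein of neutrophil granules, was near the limit of detection. It had 0, 3 and 4 counts in uninjured replicates 1 to 3, 4 and 0 counts at day 3, and 13, 13 and 4 counts at day 7. These groups overlapped in CPM. Summed over libraries, the day 7 rate was 4.83 times the uninjured rate (95% exact interval 2.08 to 13.03, counting error only), and the edgeR log2 fold change of 2.11 ± 1.14 did not pass (adjusted p = 0.258).

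Ordered by CPM per kilobase of exon, the members kept Hp first in each group while the places below it shifted. In uninjured skin the order was Hp (14212), S100a8 (98.1), Saa3 (34.9), Lcn2 (11.1), Camp (3.403), S100a9 (2.87), Slpi (1.62), Ngp (0.208) and Ltf (0.0317). Neighbours from S100a8 to Lcn2, from Camp to Slpi, and Ngp and Ltf had overlapping ranges. At day 3 it was Hp (13991), Saa3 (595), Lcn2 (161), S100a8 (69.2), S100a9 (30.2), Ltf (17.7), Slpi (8.99), Camp (5.11) and Ngp (0.337), with overlap only from S100a9 through Ltf to Slpi. At day 7 it was Hp (6547), Saa3 (388), S100a8 (54.5), S100a9 (39.4), Lcn2 (22.1), Slpi (12.4), Camp (10.98), Ltf (4.92) and Ngp (0.863). Neighbours from S100a8 down to Ltf overlapped there.

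**Figure D4:**
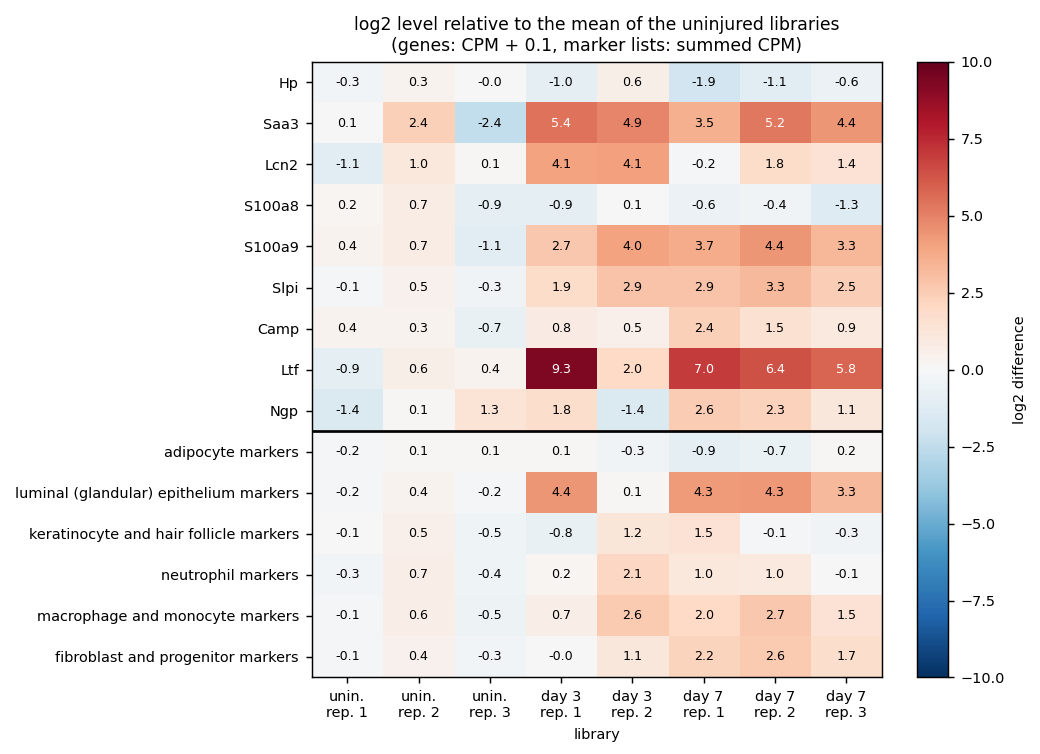
Log2 level of each member (upper rows, CPM plus 0.1) and of each summed marker list (lower rows, CPM) in each library, relative to the mean log2 level of the 3 uninjured libraries. Ltf and the luminal epithelium list are both high in day 3 replicate 1 and in day 7 libraries, whereas Saa3 and Lcn2 are high in both day 3 libraries.

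Other acute phase genes were mixed. Of 22 listed, 17 were tested. At day 7, 3 of the 17 rose (5.9% of tested genes) and none fell (1.77%) in edgeR. At an unadjusted p under 0.05, 4 were higher and 1 lower, and DESeq2 called 3 higher and 1 lower. The median log2 fold change was -0.34, against 0.04 over all tested genes. Hpx, the haem-binding hemopexin, rose 16.9-fold (10.6, 80.0 and 34.1 CPM in day 7 replicates 1 to 3, against 1.10, 5.14 and 0.433 CPM in uninjured ones, edgeR adjusted p = 0.0168). Itih4, an inter-alpha-trypsin inhibitor heavy chain, rose 39.3-fold to 16.5 ± 19.5 CPM at day 7, a mean carried by 39.0 CPM in replicate 3 (edgeR adjusted p = 0.0195). Fgg, the fibrinogen gamma chain, averaged 3.45 CPM at day 7 and had no count in uninjured libraries, at least 10.5-fold higher when 3 counts per uninjured library are allowed (edgeR adjusted p = 0.0104). At day 3, 0 of the 17 were called in edgeR (4 higher and 1 lower at an unadjusted p under 0.05, and 0 in either direction in DESeq2).

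The relatives Saa1 and Saa2 had their highest library at day 3, with day 7 values inside the uninjured range. Saa1 was at 12.7, 68.1 and 2.74 CPM in uninjured replicates 1 to 3, at 300.2 and 131 CPM at day 3, and at 16.2, 48.7 and 32.0 CPM at day 7. Saa2 was at 8.29, 45.6 and 1.30 CPM in uninjured replicates, at 198 and 46.1 CPM at day 3, and at 8.04, 22.7 and 13.8 CPM at day 7. Neither passed in any comparison (edgeR adjusted p = 0.248 for Saa1 and 0.301 for Saa2 at day 3, and 0.896 and 0.827 at day 7). Uninjured replicate 2 was the highest and replicate 3 the lowest uninjured library for Saa1, Saa2 and Saa3 alike. Saa1 and Saa2 are near-identical copies, and how the counting split reads between them is not given in the sources used here. Lrg1, another acute phase protein of adipocytes and neutrophils, was at 954, 2074 and 2706 CPM at day 7 and 5204, 7419 and 5028 CPM in uninjured skin, and did not pass (log2 fold change -1.62, edgeR adjusted p = 0.0624).

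**Figure D5:**
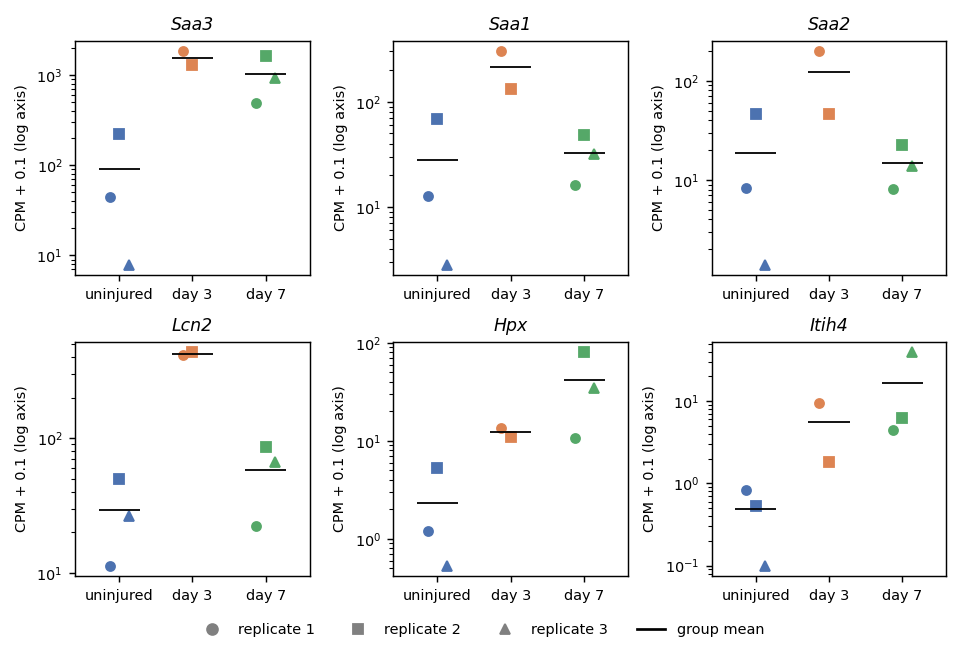
Levels of 3 serum amyloid genes, Lcn2, Hpx and Itih4 in each library, as TMM-normalised CPM plus 0.1 on a log axis; shapes give the replicate and bars the group mean. Saa1, Saa2, Saa3 and Lcn2 have their highest library at day 3, whereas Hpx and Itih4 have theirs at day 7.

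Among other antimicrobial proteins of epithelia and secretions, 28 of 29 listed symbols were in the table and 16 were tested. At day 7, 3 of these rose (5.9% of tested genes) and none fell (1.77%) in edgeR, with a median log2 fold change of 1.19. At an unadjusted p under 0.05, 6 were higher and 1 lower, and DESeq2 called 4 higher and 0 lower. Lyz2, the lysozyme of macrophages and neutrophils, rose 5.55-fold to 391 ± 171 CPM at day 7, against 70.3 ± 27.6 CPM in uninjured skin (SD, n = 3 each, edgeR adjusted p = 0.0172). Wfdc2, a secreted relative of Slpi, was at 106, 39.3 and 17.1 CPM in day 7 replicates 1 to 3, against 0, 0.122 and 0.722 CPM in uninjured ones (edgeR adjusted p = 0.0139). Wfdc18 was at 48.9, 31.2 and 14.7 CPM at day 7, against 0, 0.551 and 0 CPM in uninjured skin (edgeR adjusted p = 0.00448). In day 3 replicates 1 and 2, Wfdc2 was at 80.2 and 1.604 CPM and Wfdc18 at 24.9 and 4.17 CPM. Both were higher in replicate 1, as were Ltf and Krt8, but the Wfdc18 values lay less far apart. The replicate 2 values of Wfdc2 and Wfdc18 were above all uninjured ones, whereas that of Krt8 was inside the uninjured range. The epidermal beta-defensins stayed low, with Defb1, Defb6 and Defb14 at most 17.0 CPM in any library and none passing.

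Of 28 other neutrophil granule and surface genes, 19 were tested. At day 7, 3 of the 19 rose (5.9% of tested genes) and 1 fell (1.77%) in edgeR. At an unadjusted p under 0.05, 12 were higher and 2 lower, and DESeq2 called 5 higher and 1 lower. The log2 fold change was positive for 17 of the 19, with a median of 2.09. Over all tested genes the median was 0.04, and for the members it was 2.11, the value of Ngp, which had few counts. All day 7 libraries lay above all uninjured ones for 11 of the 19 (16.7% of tested genes) and below for 2 (13.5%). At day 3 the median was 1.39 and 0 were called in edgeR (6 higher and 0 lower at an unadjusted p under 0.05, and 2 and 0 in DESeq2). Clec4d, a C-type lectin receptor of myeloid cells, was at 6.00, 8.30 and 1.68 CPM in day 7 replicates 1 to 3, against 0, 0.245 and 0 CPM in uninjured ones (edgeR adjusted p = 0.0114). Chil3, a chitinase-like protein of macrophages and neutrophils, was at 1.13, 2.24 and 2.75 CPM at day 7, against 0, 0.122 and 0.144 CPM in uninjured skin (edgeR adjusted p = 0.0301). Lyz2, given above, was the other gene that rose. Stfa1, Stfa3 and BC100530 were not called, but averaged 31.6, 36.2 and 119.7 CPM at day 7. They averaged 5.79, 10.8 and 24.0 CPM in uninjured skin and 5.27, 7.79 and 21.6 CPM at day 3. Prtn3, the granule protease proteinase 3, fell to 71.8 ± 25.6 CPM at day 7, against 379 ± 124 CPM in uninjured skin (SD, n = 3 each, edgeR adjusted p = 0.00848). It was also lower at day 7 than at day 3, where it was at 377 and 892 CPM (edgeR adjusted p = 0.0313). In uninjured skin the granule peroxidase Mpo had at most 0.289 CPM and the granule protease Ctsg had no count. Cfd, a chromosomal neighbour of Prtn3 and Elane, averaged 55160 CPM in uninjured skin, 46336 CPM at day 3 and 34169 CPM at day 7. The source of the Prtn3 counts, by cell type or by neighbouring gene, was not tested.

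Receptors and binding partners had a median log2 fold change of 0.02 over the 14 of 18 that were tested at day 7. Of these, 3 rose (5.9% of tested genes) and 0 fell (1.77%) in edgeR. At an unadjusted p under 0.05, 6 were higher and 1 lower, and DESeq2 called 5 higher and 1 lower. Slc22a17, a receptor for lipocalin 2, was at 49.7, 48.9 and 32.2 CPM in day 7 replicates 1 to 3, against 25.9, 16.3 and 18.9 CPM in uninjured ones (log2 fold change 1.10 ± 0.26, edgeR adjusted p = 0.0305). Cd14, the lipopolysaccharide co-receptor, rose 2.72-fold to 29.7 ± 1.503 CPM (edgeR adjusted p = 0.0109). Plscr1, a phospholipid scramblase known to bind SLPI in human cells, rose 9.89-fold to 6.61 ± 2.80 CPM (edgeR adjusted p = 0.0252). Tlr4, through which calprotectin signals, was at 8.26, 9.52 and 13.8 CPM at day 7 and 20.6, 19.3 and 19.1 CPM in uninjured skin, and did not pass (edgeR adjusted p = 0.0846). Cd163, the macrophage receptor for haptoglobin and haemoglobin complexes, had a log2 fold change of -0.35 (edgeR adjusted p = 0.675).

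Of 32 transcription factors and cytokine inputs, 25 were tested. At day 7 in edgeR, 1 rose (5.9% of tested genes) and 1 fell (1.77%), counts near those shares. The median log2 fold change was -0.01. At an unadjusted p under 0.05, 6 were higher and 5 lower, and DESeq2 called 6 higher and 4 lower. The cytokine Tnf rose to 1.92, 3.92 and 1.198 CPM in day 7 replicates 1 to 3, against 0.122, 0.245 and 0 CPM in uninjured ones (edgeR adjusted p = 0.0223). Il17rc, a subunit of the receptor for interleukin 17, which induces lipocalin 2 and calprotectin in epithelia, fell by 1.13 on the log2 scale (39.4, 49.1 and 65.9 CPM at day 7, against 106, 90.8 and 141.7 CPM in uninjured skin, edgeR adjusted p = 0.0278). Il17a itself had no count in any library. The C/EBP genes Cebpa and Cebpb did not pass, at 152 to 219 CPM and 233 to 303 CPM at day 7, against 244 to 302 CPM and 310 to 374 CPM in uninjured skin (edgeR adjusted p = 0.125 and 0.288). Cebpd reached 103.7 CPM in day 3 replicate 2 and 30.2 CPM in replicate 1, against 21.1 to 29.4 CPM in uninjured skin (edgeR adjusted p = 0.229 at day 3).

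Patterns across the 8 libraries were compared by Pearson correlation of log2 CPM, as a description over libraries that share their groups and depth. The genes most like S100a9 were Slpi (r = 0.99), the myeloid adaptor Tyrobp (0.98) and the B cell surface gene Cd72 (0.98). Slpi was closest to the neutrophil attractant Cxcl5 (0.99), S100a9 (0.99) and the interferon-induced Oasl2 (0.98). For Ltf they were Atf5, Cxcl15 and Itprid1 (0.98 to 0.99), for Saa3 they were Limd2, H2-DMa and Mag (0.97 to 0.99), and for Lcn2 they were Rin1, Paxx and Olfm1 (0.94 to 0.95). Camp was closest to Mex3a, Wnt4 and Zfp871 (0.98 to 0.99), S100a8 to Gnal, Htra4 and Epgn (0.95), Hp to Dguok, Fbxl15 and Gatd1 (0.97 to 0.98), and Ngp to Snhg14, Ildr1 and Magef1 (0.95 to 0.96). S100a8 was not among the genes named for S100a9, nor the reverse.

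In the deposited coordinates, Camp (chromosome 9, 109676447 to 109678685, minus strand), Ngp (9, 110248815 to 110252080, plus strand) and Ltf (9, 110848339 to 110871835, plus strand) lie on the same chromosome. Slpi (164195990 to 164231015) and Lcn2 (32274645 to 32278264) lie on chromosome 2, Saa3 (46361422 to 46365124) on chromosome 7 and Hp (110301760 to 110305804) on chromosome 8, all on the minus strand. These coordinates match the GRCm38 annotation for 0 of the 9 members, although the submitters' processing notes name mm10, so their build is not settled. Within the deposited coordinates Slpi overlaps the microRNA gene Mir7678 on the same strand. The nearest genes were Nme6 and Cdc25a for Camp, Ptpn23 and Klhl18 for Ngp, Gm10030 and Gm43814 for Ltf, Svs5 and Matn4 for Slpi, and 1110008P14Rik and Ptges2 for Lcn2. They were Saal1 and Saa4 for Saa3 and Txnl4b and Dhodh for Hp. Saa3 was flanked by genes averaging 11.3 CPM (Saal1) and 0.609 CPM (Saa4) over all libraries, far below its own level in wounded skin.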

How the data were processed

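The deposited values are raw counts per gene, made by the authors with featureCounts 2.0.8, per the file headers. The submitters' processing notes also name STAR 2.7.10b, DESeq2 and mm10. Strand and multimapping settings are stated in no source used here. Counts of 8 libraries (5308959 to 17751689) were fitted in edgeR 4.0.16 (R 4.3.3, limma 3.58.1) with its quasi-likelihood test, TMM scaling, filterByExpr at a minimum count of 10, all 3 groups in 1 model (5 residual degrees of freedom), and Benjamini-Hochberg adjustment over 18656 genes at 0.05. The script was tested on simulated data. Log2 fold changes carry standard errors, and intervals of counting ratios are 95% and cover counting error only. Of 53700 identifiers, 52093 carried a symbol. Named were all 9 members, list genes that passed the test, the nearest genes on each side, and for each member the 3 genes (mean of at least 1 CPM) with the highest correlation. Other list and marker genes were named after their values were seen. Members and lists were chosen with earlier results of these data known. Alternatives were other scalings, DESeq2 1.42.0, other filters (none, or a minimum count of 30), the 2 groups alone, a replicate block and leaving out each library. No 2 libraries agreed within sampling noise.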

Additional observations from a re-analysis of the deposited data

How the results depend on the processing

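Slpi and S100a9 were higher at day 7 than in uninjured skin in all 13 alternatives. The number of members higher at day 7 (4) ranged from 2 to 5 when 1 library of the 2 groups compared was left out (as throughout here), and the count over all genes (1431) ranged from 314 to 4055. DESeq2 gave 2602 genes and 1 lower member (Hp), and no filter gave 3156 genes and 1 lower member (S100a8). At day 3 against uninjured skin, the members higher (0) were 5 with DESeq2, 5 without a filter, 2 with a replicate block (Lcn2 and S100a9) and 0 to 2 with 1 library left out. All genes called there (2) were 422 with DESeq2, 926 without a filter, 0 with a minimum count of 30, 0 with the 2 groups alone, 7 with the replicate block and 0 to 150 with 1 library left out. At day 7 against day 3, the members lower (0) were 1 with DESeq2, 2 without a filter (Lcn2 and Ltf), 1 with the replicate block (Lcn2) and 0 to 1 with 1 library left out. All genes called there (16) were 26 with upper-quartile scaling (15 higher and 11 lower, against 12 and 4), 221 with DESeq2, 572 without a filter, 126 with the replicate block and 5 to 34 with 1 library left out. Same-numbered libraries correlated at -0.07 to 0.20 in their deviations. A value over 0.1 had been set as a sign of pairing. Uninjured and day 7 replicate 3 (0.20) and day 3 and day 7 replicate 2 (0.12) exceeded it, and the others did not. Whether the numbers pair libraries is therefore not settled.

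The log2 fold change of Hp at day 3 (-0.02) was 0.072 with upper-quartile scaling and 0.0073 with a minimum count of 30, and -1.05 to 0.56 with 1 library left out (0.16 without uninjured replicate 2 and 0.56 without day 3 replicate 1). That of Ngp at day 3 (0.50) was -0.012 without uninjured replicate 1 and -4.31 to 1.71 over all left-out libraries (-4.31 without day 3 replicate 1). At day 7 against day 3, S100a8 (-0.35) was 0.044 with the replicate block and -0.77 to 0.23 with 1 library left out (0.23 without day 3 replicate 2). Ltf there (-1.84) was -2.84 to 4.68 and S100a9 (0.37) was -0.14 to 1.19 with 1 library left out, each with the sign turned without day 3 replicate 1. Upper-quartile scaling put the median over all genes at day 3 at 0.13, against 0.02. The causes were not tested. With 2 libraries at day 3, few counts of Ngp and Ltf in uninjured skin, and the spread between libraries, small differences were not detectable. Hp, the most abundant member, still had a standard error of 0.58 for its log2 fold change at day 3.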
